A study of Mus musculus with 6 samples.

Results

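The genes described here encode the IRS docking proteins IRS1 and IRS2 and 8 receptor tyrosine kinases, namely *Insr*, *Igf1r*, *Egfr*, *Erbb3*, *Pdgfra*, *Pdgfrb*, *Fgfr1* and *Met*. They are 10 of the 54331 genes in the expression table and were found by their gene symbols. They were chosen with results of the comparison below already known, as genes that carry growth factor signals to PI3K and AKT, so their levels and differences are given as a description and without p-values, and no support is drawn from the calls counted among them.

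Gene expression was measured by RNA-seq in 6 wells of cells undergoing reprogramming, as TPM, a measure of transcript abundance that is scaled for transcript length and library size. The cells were mouse embryonic fibroblasts (MEFs) from pooled male E13.5 embryos, carrying an Oct4-EGFP transgene on a mixed C57BL/6, DBA/2 and ICR background. Both groups received retroviruses for Oct4, Sox2 and Klf4 together with AKT-MER, a myristoylated AKT joined to a modified estrogen receptor that is switched on by 4-hydroxytamoxifen (4OHT). The OSKA + 4OHT group (3 wells) was given 4OHT from 3 days post infection (3 dpi). The OSKA − 4OHT group (3 wells) was given ethanol, the vehicle, instead. RNA was taken at 10 dpi. Wells within a group came from the same transduced cells, so p-values measure only the spread between wells, which may be technical, and all errors given with a mean are SD over 3 wells. Both groups carry AKT-MER and no well without it was analysed here, so that an action of 4OHT itself and the activation of AKT cannot be told apart.

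Receptor tyrosine kinases bind growth factors outside the cell and phosphorylate themselves and docking proteins inside it. The insulin and IGF1 receptors signal mainly through IRS1 and IRS2, which recruit PI3K and so activate AKT. Active AKT is known to restrain this input in many cell types, in part because it keeps FOXO transcription factors, which can switch on receptor and *Irs* genes, out of the nucleus.

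The 10 genes did not behave as 1 group. *Irs1*, *Irs2*, *Igf1r* and *Pdgfrb* were each about 3 times lower in the wells with 4OHT, with no overlap between the groups. *Insr* and *Met* were lower by a smaller factor, *Egfr*, *Erbb3* and *Pdgfra* overlapped between the groups, and *Fgfr1* was higher in every well with 4OHT. The median log2 fold change of the 10 genes (OSKA + 4OHT minus OSKA − 4OHT) was −0.54, against 0.14 over all 15382 genes tested. Because whole wells were measured, fewer cells that express a gene and less RNA per cell cannot be told apart.

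The promoters of *Irs1* and *Irs2* are shown first, because of the 6 members matched to a promoter only these held a forkhead-related motif near the RefSeq start. Whether the motif has a part in their change was not tested. The stretches are 120 bases of the GRCm38.p6 assembly that end just before the RefSeq transcription start, on the minus strand at chr1:82291440-82291559 for *Irs1* and chr8:11008930-11009049 for *Irs2*. Capitals mark TGTTTTG, the reverse complement of CAAAACA, the core of the insulin response element that FOXO factors are known to bind.
Irs1: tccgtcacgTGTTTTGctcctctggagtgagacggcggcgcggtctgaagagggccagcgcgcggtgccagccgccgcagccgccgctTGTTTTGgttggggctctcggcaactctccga
Irs2: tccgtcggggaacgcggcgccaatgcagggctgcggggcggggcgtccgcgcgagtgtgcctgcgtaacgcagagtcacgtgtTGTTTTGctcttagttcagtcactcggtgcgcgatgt

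CAAAACA was searched on both strands in the 300 bases around each RefSeq start, from 250 before it to 50 after it. It occurred at −111 and −32 from the start of *Irs1* and at −37 from the start of *Irs2*, and in 6.28% of all 32851 promoters of this length. Of the other members, *Igf1r*, *Egfr*, *Pdgfra* and *Met* could be matched to a promoter, and none of them held this motif. The forkhead core GTAAACA, searched in the same way, was in none of the 6 promoters and in 3.65% of all. After the stretches had been read, the E-box CACGTG was searched as well, a palindrome that bHLH factors bind. It lay at −115 in *Irs1*, sharing 2 bases with a TGTTTTG, and at −44 in *Irs2*, with 1 base between it and the TGTTTTG, and a copy was also found at −126 in *Met*. The E-box was in 7.15% of all promoters, and both CACGTG and CAAAACA were in 0.408%. Since the E-box was picked from these same stretches, nothing is read from these shares. The E-box also holds a CpG, and the promoters of *Irs1* and *Irs2* had 71.3 and 72.0% GC and 28 and 41 CpG. The medians over all promoters were 52.7% GC and 7 CpG. The RefSeq start was 23 bases upstream of the GENCODE gene start for *Irs1* and 471 bases upstream for *Irs2*, so that the match in *Irs2* lay at −508 from its GENCODE start. Binding to these motifs was not measured here, and a match describes the letters only.

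*Irs1* (chr1, 82233101 to 82291416, minus strand in GRCm38) codes for a docking protein that links the insulin and IGF1 receptors to PI3K. Its levels were 8.83, 10.4 and 8.10 TPM in the OSKA − 4OHT wells and 3.42, 2.86 and 2.42 TPM in the OSKA + 4OHT wells. The lowest well without 4OHT was above the highest well with it. The mean went from 9.13 ± 1.20 to 2.90 ± 0.502 TPM, which was 3.15-fold lower, with a log2 fold change of −1.51 (SE 0.251).

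*Irs2* (chr8, 10984681 to 11008458, minus strand) codes for the second docking protein of the same receptors. Without 4OHT the wells had 17.9, 19.7 and 15.2 TPM, and with 4OHT they had 6.69, 5.73 and 4.62 TPM. All wells without 4OHT were again higher. Its mean was 17.6 ± 2.23 TPM without and 5.68 ± 1.04 TPM with 4OHT, 3.10-fold lower (log2 fold change −1.56, SE 0.223).

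The proportion of the *Irs* transcripts to each other stayed within the spread between wells. *Irs2* was 2.03, 1.88 and 1.88 times as abundant as *Irs1* without 4OHT and 1.96, 2.00 and 1.91 times with it. Together they summed to 26.7 ± 3.38 TPM without 4OHT and 8.58 ± 1.54 TPM with it, 3.12-fold lower. Each gene has 1 transcript in GENCODE M21.

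*Igf1r* (chr7, 67952827 to 68233668) codes for the receptor of IGF1 and IGF2, and was the member with the most negative log2 fold change. The wells without 4OHT lay close together at 38.7, 39.8 and 37.2 TPM, and those with 4OHT had 12.1, 13.1 and 9.40 TPM. The means of 38.6 ± 1.33 and 11.5 ± 1.91 TPM were separated by far more than the spread. The level was 3.34-fold lower with 4OHT, with a log2 fold change of −1.71 (SE 0.184).

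*Insr* (chr8, 3122061 to 3279617) codes for the insulin receptor, the closest relative of IGF1R, and differed by a smaller factor. Its wells had 10.8, 10.9 and 10.6 TPM without 4OHT and 10.4, 8.01 and 5.97 TPM with it. The highest well with 4OHT was just under the lowest well without it, so the groups were separate by a small margin. The means were 10.8 ± 0.150 and 8.12 ± 2.21 TPM (log2 fold change −0.42, SE 0.247), and the log2 fold change was −0.23 without OSKA + 4OHT replicate 3 and −0.60 without OSKA + 4OHT replicate 1.

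The ratio of *Igf1r* to *Insr* therefore moved. It was 3.58, 3.65 and 3.51 in the wells without 4OHT and 1.17, 1.63 and 1.57 in those with it, and the groups did not overlap. The third receptor of this family, *Insrr*, was at 0 TPM in 5 wells and 0.186 TPM in the other.

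**Figure D1:**
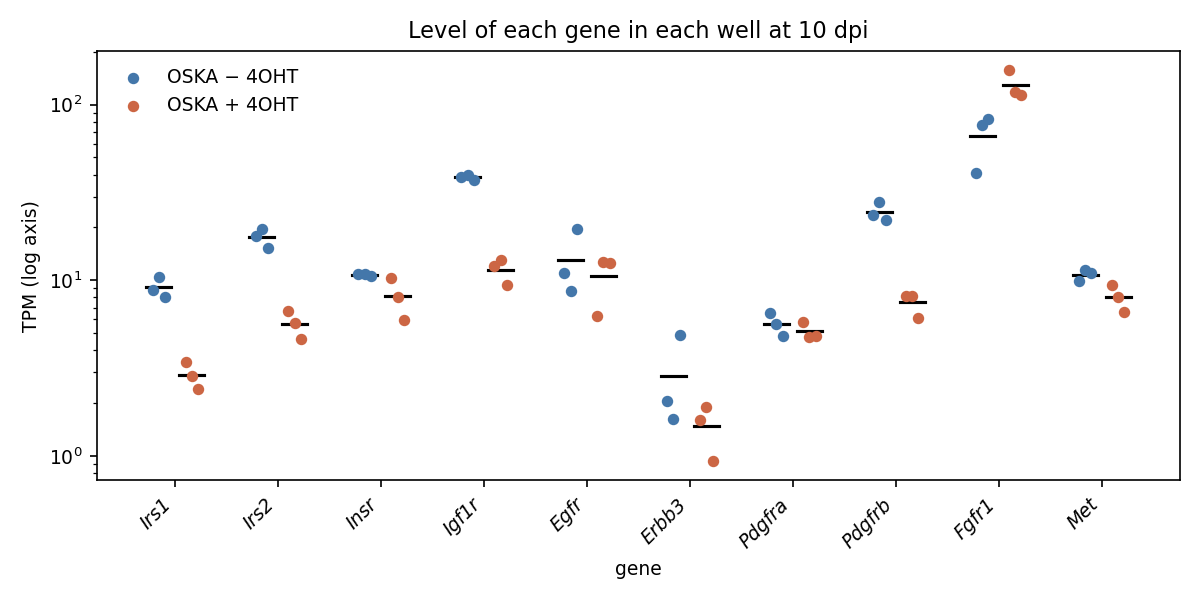
TPM of each of the 10 genes in every well at 10 dpi on a log axis, with a point per well, a bar at the mean, and the OSKA − 4OHT and OSKA + 4OHT groups side by side. *Irs1*, *Irs2*, *Igf1r* and *Pdgfrb* are separate and lower with 4OHT, while *Fgfr1* goes from 66.5 to 129 TPM.

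The ligands of these receptors were also measured. *Igf1* had 20.6, 42.2 and 24.9 TPM without 4OHT and 11.2, 10.6 and 16.8 TPM with it, which did not overlap but did not pass the test (log2 fold change −1.12, SE 0.326, limma-trend adjusted p = 0.112). *Igf2* had 24.6 ± 3.42 and 31.9 ± 6.91 TPM (limma-trend adjusted p = 0.414). Neither ligand gene thus had a difference that could be called.

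*Pdgfrb* (chr18, 61045150 to 61085061) codes for PDGF receptor β, which is typical of mesenchymal cells. The OSKA − 4OHT wells had 23.6, 27.8 and 22.1 TPM, and the OSKA + 4OHT wells 8.14, 8.21 and 6.15 TPM. The groups were far apart, with means of 24.5 ± 2.97 and 7.50 ± 1.17 TPM. The difference was 3.27-fold (log2 fold change −1.65, SE 0.205), which was close to that of *Irs1*, *Irs2* and *Igf1r*.

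*Pdgfra* (chr5, 75152292 to 75198215), which codes for the other PDGF receptor, had 6.50, 5.67 and 4.80 TPM without 4OHT and 5.79, 4.78 and 4.86 TPM with it. The wells of the groups lay among each other, with means of 5.66 ± 0.847 and 5.14 ± 0.564 TPM (log2 fold change −0.12, SE 0.241). The log2 fold change was −0.024 without OSKA − 4OHT replicate 1 and −0.22 without OSKA − 4OHT replicate 3. *Pdgfrb* was 3.64, 4.90 and 4.59 times *Pdgfra* without 4OHT and 1.40, 1.72 and 1.27 times with it. The PDGF receptors thus came to lie at more similar levels.

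**Figure D2:**
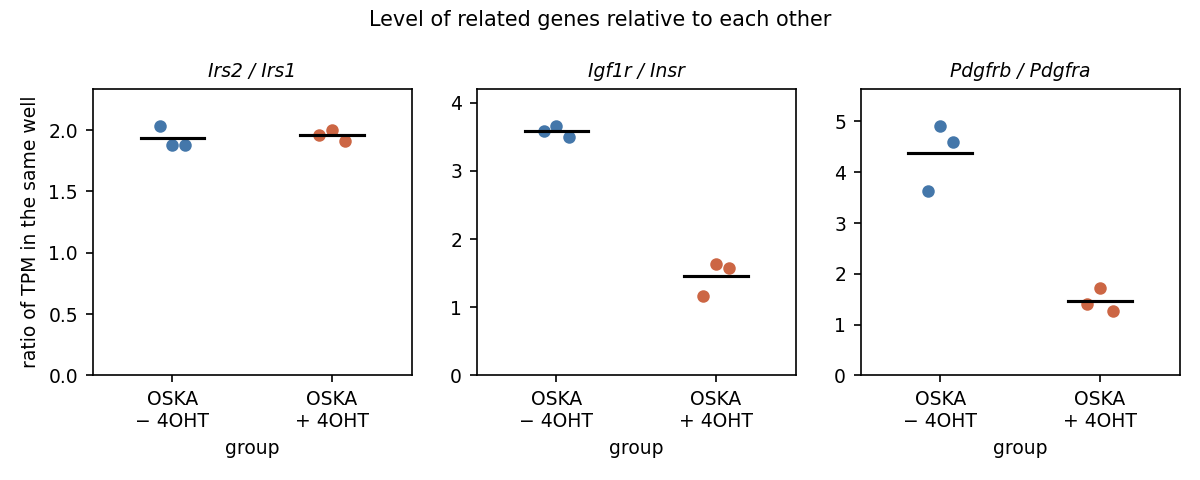
Ratio of TPM in the same well for *Irs2* to *Irs1*, *Igf1r* to *Insr* and *Pdgfrb* to *Pdgfra*, with a point per well and a bar at the mean of each group of 3 wells. The *Irs* ratio has means of 1.93 and 1.96, whereas the mean ratio goes from 3.58 to 1.46 for *Igf1r* to *Insr* and from 4.38 to 1.46 for *Pdgfrb* to *Pdgfra*.

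Genes of the PDGF ligands differed in the same wells. A gene was called changed where limma-trend gave a Benjamini-Hochberg adjusted p under 0.05 and the fold change was above 2. *Pdgfd*, whose product activates PDGFRβ, fell from 45.5 ± 1.13 to 18.1 ± 3.47 TPM (log2 fold change −1.33, SE 0.187, limma-trend adjusted p = 0.0156). *Pdgfc*, whose product binds PDGFRα, fell from 47.3 ± 6.19 to 20.2 ± 1.60 TPM (log2 fold change −1.20, SE 0.170, limma-trend adjusted p = 0.0158). *Pdgfd* stayed past the test only without OSKA + 4OHT replicate 2 (limma-trend adjusted p = 0.0422), and without any other well its adjusted p was 0.05 to 0.0606. *Pdgfc* stayed past it only without OSKA − 4OHT replicate 3 (limma-trend adjusted p = 0.0323), with up to 0.0694 otherwise. *Pdgfa* had 50.8 ± 13.2 and 35.1 ± 4.90 TPM, and *Pdgfb* 14.6 ± 3.89 and 13.2 ± 6.53 TPM, and neither passed (limma-trend adjusted p = 0.307 and 0.782).

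*Fgfr1* (chr8, 25513654 to 25575718), an FGF receptor gene of fibroblasts, was the only member with a positive log2 fold change. Its wells had 40.9, 76.0 and 82.6 TPM without 4OHT and 156.6, 118.2 and 113.0 TPM with it. Every well with 4OHT was above every well without, although OSKA − 4OHT replicate 1 was low for its group. The means were 66.5 ± 22.4 and 129 ± 23.8 TPM, a ratio of 1.94 (log2 fold change 1.0, SE 0.298), and without that replicate the log2 fold change was 0.69. *Fgfr1* has 19 annotated transcripts of 381 to 5041 bases, and whether the share of each changed was not tested.

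Among the FGF receptors *Fgfr1* made up 81.6 ± 13.4% of the summed TPM without 4OHT and 86.3 ± 3.41% with it, which overlapped. *Fgfr2* had 9.83 ± 7.33 and 9.52 ± 3.77 TPM, *Fgfr3* had 3.62 ± 2.06 and 10.6 ± 4.12 TPM, and neither was called (limma-trend adjusted p = 0.885 and 0.13). *Fgfr4* was at 0 TPM in 5 wells.

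The FGF ligands included genes with large decreases. *Fgf2*, which codes for a ligand of FGFR1 that supports fibroblast growth, had 133.9, 63.2 and 58.5 TPM without 4OHT and 9.86, 7.40 and 7.36 TPM with it. It fell by 3.21 on the log2 scale (SE 0.347, limma-trend adjusted p = 0.00732). *Fgf18* fell from 46.2 ± 4.51 to 6.46 ± 1.55 TPM (log2 fold change −2.77, SE 0.218, limma-trend adjusted p = 0.00367). Both passed the test when any 1 well was left out. *Fgf4*, an early embryonic FGF, had 10.8 ± 1.59 and 14.2 ± 2.35 TPM (limma-trend adjusted p = 0.366). *Fgfr1* thus had a higher level in the wells in which *Fgf2* and *Fgf18* were lower.

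*Egfr* (chr11, 16752203 to 16918158) codes for the EGF receptor. Its wells had 11.0, 8.76 and 19.7 TPM without 4OHT and 6.29, 12.8 and 12.6 TPM with it, so the groups overlapped and OSKA − 4OHT replicate 3 was the highest. The means were 13.1 ± 5.76 and 10.6 ± 3.70 TPM (log2 fold change −0.29, SE 0.403). The sign of this difference turned to 0.036 without OSKA − 4OHT replicate 3 and to 0.033 without OSKA + 4OHT replicate 1.

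*Erbb3* (chr10, 128567523 to 128589652) codes for a receptor with an impaired kinase that signals to PI3K in a pair with ERBB2, and was the lowest of the 10. It had 2.07, 1.63 and 4.88 TPM without 4OHT and 1.61, 1.90 and 0.941 TPM with it. The groups overlapped, with means of 2.86 ± 1.76 and 1.49 ± 0.492 TPM (log2 fold change −0.67, SE 0.506), and without OSKA − 4OHT replicate 3 the log2 fold change was −0.27. Its partner *Erbb2* had 8.83 ± 0.308 and 7.01 ± 1.32 TPM and was not called (limma-trend adjusted p = 0.463). *Erbb4* was under 0.5 TPM in every well.

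Of the EGF-like ligands, *Epgn* rose and *Hbegf* fell. *Epgn*, which codes for the EGFR ligand epigen, had 0.907, 2.12 and 1.58 TPM without 4OHT and 22.1, 28.4 and 20.9 TPM with it. It rose by 3.61 on the log2(TPM + 0.5) scale (SE 0.307, limma-trend adjusted p = 0.00376) and did so when any 1 well was left out. *Hbegf*, which codes for a heparin-binding ligand of EGFR and ERBB4, fell from 33.4 ± 6.89 to 7.87 ± 2.15 TPM (log2 fold change −2.03, SE 0.282, limma-trend adjusted p = 0.0149). That call held without OSKA − 4OHT replicate 3 or OSKA + 4OHT replicate 3, and otherwise the adjusted p was 0.0531 without OSKA − 4OHT replicate 1, 0.0623 without OSKA − 4OHT replicate 2, 0.0562 without OSKA + 4OHT replicate 1 and 0.0575 without OSKA + 4OHT replicate 2, all from limma-trend. *Ereg*, another EGFR ligand, was at 29.2 ± 3.43 and 37.2 ± 3.78 TPM (limma-trend adjusted p = 0.305). *Nrg1*, a ligand of ERBB3, was at 19.8 ± 11.3 and 12.2 ± 3.04 TPM (limma-trend adjusted p = 0.525).

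*Met* (chr6, 17463800 to 17573980) codes for the receptor of hepatocyte growth factor. It had 9.88, 11.4 and 11.0 TPM without 4OHT and 9.37, 8.04 and 6.63 TPM with it. The groups did not overlap but were close, as for *Insr*, with means of 10.8 ± 0.794 and 8.01 ± 1.37 TPM (log2 fold change −0.42, SE 0.213). Its ligand gene *Hgf* was low, with 1.67 ± 0.741 and 1.25 ± 0.445 TPM (limma-trend adjusted p = 0.8).

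**Figure D3:**
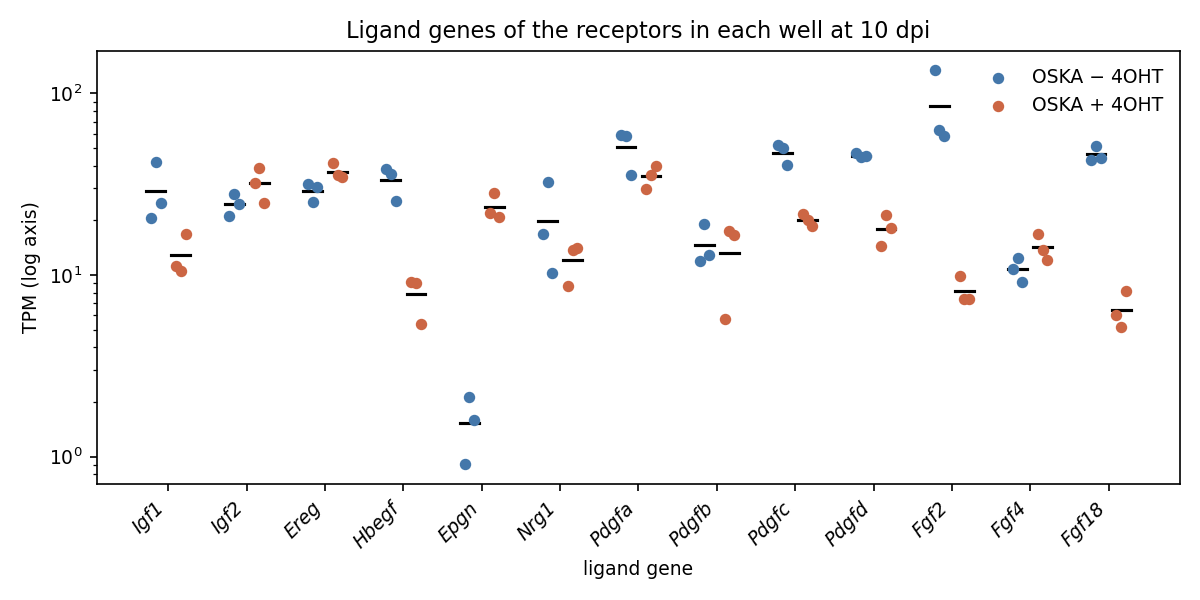
TPM of ligand genes of the receptors with a mean of at least 10 TPM, in every well at 10 dpi on a log axis, with a point per well and a bar at the group mean. *Fgf2*, *Fgf18*, *Hbegf*, *Pdgfc* and *Pdgfd* lie lower with 4OHT and *Epgn* goes from 1.54 to 23.8 TPM.

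Of 38 ligand genes listed for the receptors, 22 had a mean of at least 1 TPM and were tested. *Epgn* rose and 5 fell, namely *Fgf2*, *Fgf18*, *Hbegf*, *Pdgfd* and *Pdgfc*. These 6 were 27.3% of the 22, against 4.23% of all tested genes called in either direction. The 22 had a median log2 fold change of −0.37, against 0.14 over all tested genes, and −0.17 without OSKA − 4OHT replicate 2.

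Counted with the same criteria as all other genes, 4 of the 10 members were called lower (*Irs1*, *Irs2*, *Igf1r* and *Pdgfrb*) and 0 higher, where 1.37% of the 15382 tested genes were called lower and 2.87% higher. The groups did not overlap in 7 members, 6 lower and 1 higher, where 10.0% of tested genes were separate and lower and 18.1% separate and higher (28.2% in either direction). Since the members were picked from this comparison, nothing is read from these counts. The calls also moved with the wells used, as that of *Irs1* was lost without any 1 well, that of *Irs2* without replicate 1 or 2 of either group, and that of *Pdgfrb* without OSKA + 4OHT replicate 1. Without the filter on low genes *Irs1* was not called. The log2 fold changes of the 4 genes lay between −1.80 and −1.40 in the fits that left out a well.

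**Figure D4:**
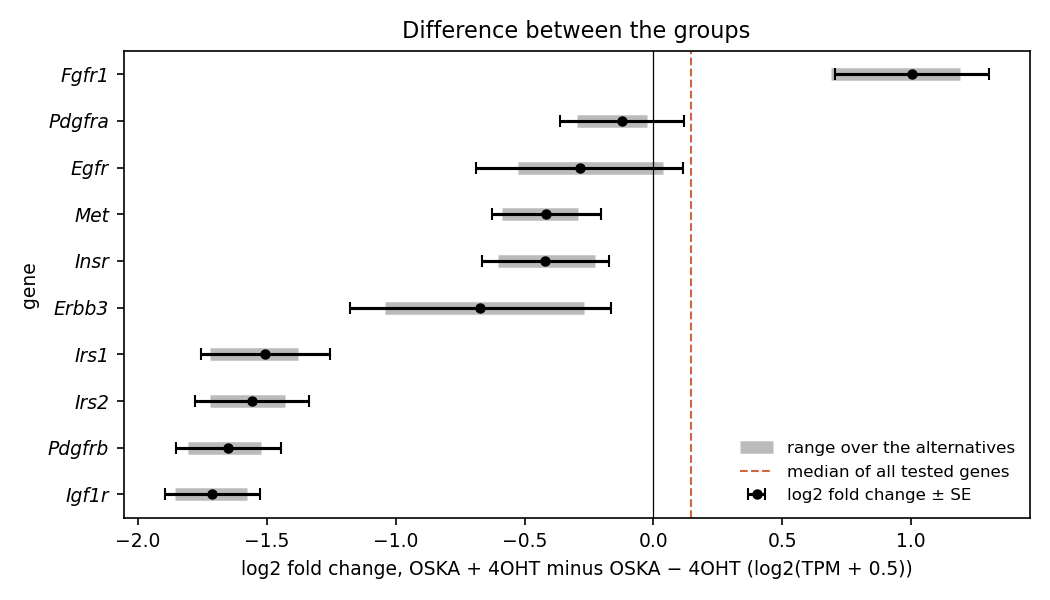
Log2 fold change of each of the 10 genes, OSKA + 4OHT minus OSKA − 4OHT, on the log2(TPM + 0.5) scale, with the point at the estimate, the bar at its SE, a grey band over the range of the alternatives, and a dashed line at the median of all tested genes (0.14). *Igf1r*, *Pdgfrb*, *Irs2* and *Irs1* lie between −1.71 and −1.51, *Insr* and *Met* at −0.42, and *Fgfr1* at 1.0.

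In order of level, *Fgfr1*, *Igf1r* and *Pdgfrb* led the members without 4OHT, each with all wells above those of the next. Below them, from *Irs2* over *Egfr*, *Insr* and *Met* to *Irs1*, each neighbour overlapped with the next. *Pdgfra* and *Erbb3* came last, with all wells below those of *Irs1*, and overlapped with each other. With 4OHT, *Fgfr1* was again the highest with no overlap. From *Igf1r* over *Egfr*, *Insr*, *Met*, *Pdgfrb* and *Irs2* to *Pdgfra*, each neighbour overlapped with the next, and only *Irs1* and *Erbb3* were set apart below.

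Among the 8 receptors the share of *Fgfr1* was higher with 4OHT. They were chosen with this comparison known, so nothing is read from this share, and *Fgfr1* itself was not called. It held 28.5, 41.8 and 42.8% of the summed TPM of the 8 receptors without 4OHT and 74.5, 67.6 and 70.8% with it. Of the summed TPM of all 58 receptor tyrosine kinase genes listed, it held 6.2 ± 2.2% without and 16.8 ± 1.6% with 4OHT. The ratio of *Fgfr1* to *Igf1r*, the members with the highest and the lowest log2 fold change, was 1.73 ± 0.603 and 11.3 ± 2.02. The sum over the 8 receptors was 172.8 ± 25.9 TPM without and 181.6 ± 26.0 TPM with 4OHT and overlapped.

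Among all 58 receptor tyrosine kinase genes listed, *Fgfr1* ranked 3 by mean TPM without 4OHT and 1 with it. Its wells overlapped with those of *Epha7*, *Ryk* and *Ptk7* without 4OHT and with those of *Axl* with it. *Igf1r* went from rank 7 to 13 and *Pdgfrb* from 9 to 24, whereas *Egfr* (16 and 15), *Insr* (18 and 22), *Met* (19 and 23), *Pdgfra* (27 and 27) and *Erbb3* (34 and 39) moved by 5 places or fewer. Of the 50 others, 32 were tested, 1 rose and 2 fell, which is 9.38% against 4.23% of all tested genes called in either direction. Their median log2 fold change was −0.12, and its sign turned without OSKA − 4OHT replicate 2 (0.085) and with a minimum of 5 TPM (0.044).

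*Axl*, which codes for the receptor of GAS6, was the highest of all without 4OHT, at 414.3, 366.3 and 359.7 TPM, and had 120.6, 117 and 97.2 TPM with it. It fell by 1.77 on the log2 scale (SE 0.133, limma-trend adjusted p = 0.00366) and passed without any 1 well. *Axl* decided the total over all 58 genes, which went from 1069 ± 21.4 to 765.9 ± 81.0 TPM, while without it the sums of 688.5 ± 23.7 and 654.3 ± 69.4 TPM overlapped.

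*Ntrk2*, which codes for the BDNF receptor TrkB, rose from 0.931 ± 0.617 to 10.1 ± 2.31 TPM (log2 fold change 2.95, SE 0.404, limma-trend adjusted p = 0.0143). Its call held without OSKA − 4OHT replicate 1 or 3, and was lost without OSKA − 4OHT replicate 2 or any 1 well with 4OHT, with an adjusted p from limma-trend of up to 0.0768. *Epha3*, which codes for an ephrin receptor, fell from 18.2 ± 2.14 to 8.21 ± 1.36 TPM (log2 fold change −1.11, SE 0.210, limma-trend adjusted p = 0.0373), and this call was lost without any 1 well (0.0731 to 0.117) and without the filter on low genes (0.0645). *Ddr2*, a collagen receptor gene, was the next highest after *Axl* without 4OHT, at 110.0 ± 6.02 TPM, and had 81.6 ± 14.9 TPM with it (limma-trend adjusted p = 0.209).

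**Figure D5:**
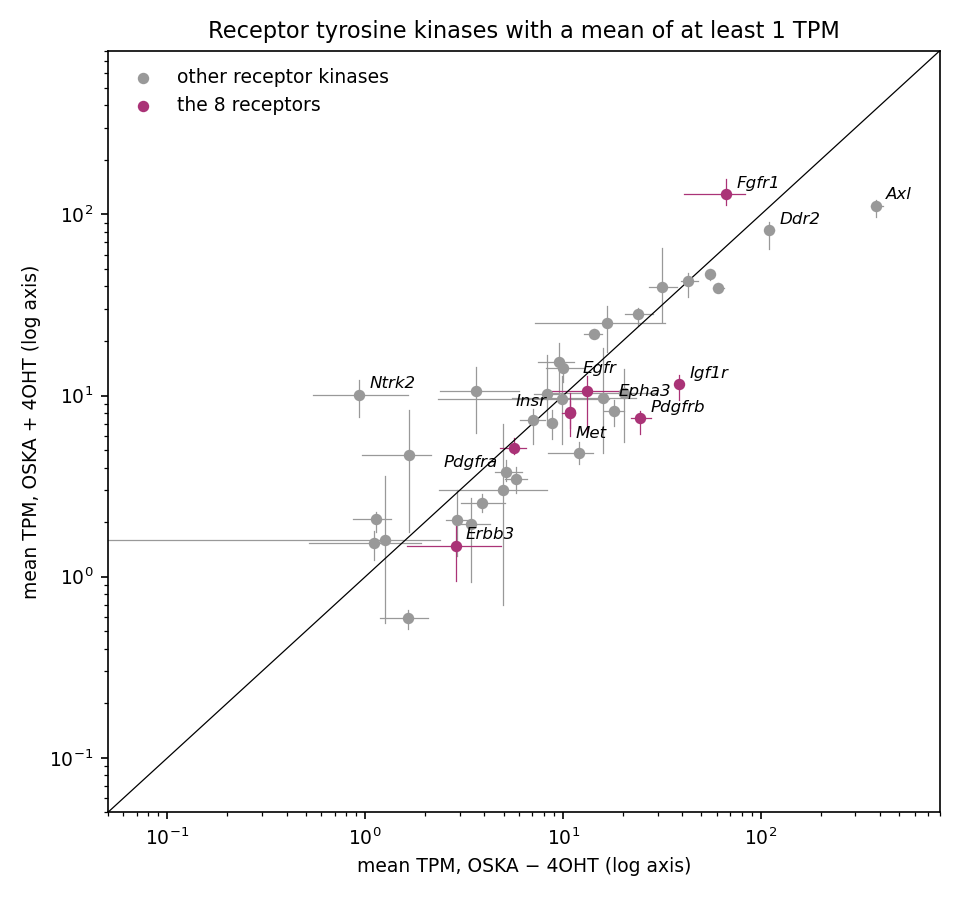
Mean TPM of each receptor tyrosine kinase gene with a mean of at least 1 TPM, without 4OHT on the x axis and with 4OHT on the y axis (log axes), with lines from the lowest to the highest well and a well at or under 0.05 TPM drawn at the edge. *Axl*, *Igf1r* and *Pdgfrb* lie below the line of equality and *Fgfr1* and *Ntrk2* above it.

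Inside the cell, the adaptors and docking proteins other than IRS1 and IRS2 showed no call. Of 32 listed genes 26 were tested and 0 were called by limma-trend, against 4.23% of all tested genes called in either direction. An unadjusted p under 0.05 from limma-trend was found for 6 of the 26, where 3281 of all 15382 tested genes had one. The median log2 fold change of the list was −0.13, and lay between −0.24 and −0.084 when 1 well was left out. *Grb10*, whose product binds and inhibits the insulin and IGF1 receptors, had 146.8 ± 14.3 TPM without and 181.5 ± 18.8 TPM with 4OHT (limma-trend adjusted p = 0.271). *Shc1*, whose product links receptors to RAS, had 119.9 ± 41.0 and 81.8 ± 11.8 TPM (limma-trend adjusted p = 0.372). Under quantile normalization 1 gene of this list was called.

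In the PI3K, AKT and mTOR core, 1 of 29 tested genes rose and 1 fell, which is 6.90% against 4.23% of all tested genes. The median log2 fold change was 0.065, and its sign turned without OSKA + 4OHT replicate 1 (−0.045), after median centring (−0.078) and under quantile normalization (−0.16). *Pik3r3*, which codes for the regulatory PI3K subunit p55γ, had 18.8, 18.2 and 8.38 TPM without 4OHT and 46.4, 55.4 and 72.0 TPM with it, and rose by 1.96 on the log2 scale (SE 0.351, limma-trend adjusted p = 0.0317). It passed only without OSKA − 4OHT replicate 3 (limma-trend adjusted p = 0.0393) when a well was left out, and reached 0.114 without OSKA + 4OHT replicate 2 and 0.0549 without the intensity trend. *Rictor*, which codes for the defining subunit of mTORC2, the complex that phosphorylates AKT, fell from 12.4 ± 1.79 to 5.28 ± 0.861 TPM (log2 fold change −1.15, SE 0.227, limma-trend adjusted p = 0.0407), a call lost without any 1 well (0.0909 to 0.139) and without the filter on low genes (0.0826). *Akt1* had 749.3, 750.6 and 653.3 TPM without 4OHT and 621.4, 641.6 and 448.4 TPM with it (limma-trend adjusted p = 0.286). Both groups carry the AKT transgene, whose activity is set by 4OHT on the protein, so its mRNA does not check the treatment.

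The inhibitors of receptor signalling included 1 gene that rose and 1 that fell among 24 tested, which is 8.33% against 4.23% of all tested genes. The median log2 fold change was −0.083, and 0.014 without OSKA − 4OHT replicate 3. *Lrig1*, whose product promotes the breakdown of ERBB receptors and MET, rose from 29.3 ± 3.86 to 87.8 ± 10.9 TPM (log2 fold change 1.57, SE 0.173, limma-trend adjusted p = 0.00782). It passed in 5 of 6 fits that left out a well and missed the threshold without OSKA + 4OHT replicate 1 (limma-trend adjusted p = 0.0502). *Dusp4*, which codes for a phosphatase of ERK, fell from 34.1 ± 1.75 to 14.6 ± 2.87 TPM (log2 fold change −1.21, SE 0.199, limma-trend adjusted p = 0.025) and passed only without OSKA + 4OHT replicate 3 among these fits (0.0473 to 0.0886). *Dusp5*, another ERK phosphatase named after its values were seen, passed the adjusted p but not the fold threshold (log2 fold change −0.95, limma-trend adjusted p = 0.0471).

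The FOXO genes themselves were not called. *Foxo4* was the highest with 45.7 ± 2.26 and 40.5 ± 3.33 TPM, followed by *Foxo3* with 19.9 ± 6.95 and 15.6 ± 1.49 TPM (limma-trend adjusted p = 0.545 and 0.592). *Foxo1* had 5.84, 7.37 and 6.88 TPM without 4OHT and 7.96, 7.42 and 8.54 TPM with it, which did not overlap and was higher (log2 fold change 0.24, limma-trend adjusted p = 0.564). Of 3 tested, 0 had an unadjusted p under 0.05 and 0 were called by limma-trend. Of all 15382 tested genes, 3281 had such a p and 4.23% were called, so that 0 of 3 is near these shares. FOXO is regulated mainly by where the protein lies in the cell, which was not measured here.

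Some marker genes of cell types also differed between the groups, while the makeup of the wells itself was not measured. The calls in each marker list can be read against 4.23% of all tested genes called in either direction. An unadjusted p under 0.05 from limma-trend was found for 3281 of all 15382 tested genes. The 14 fibroblast markers, all tested, summed to 10820 to 12490 TPM without 4OHT and 6306 to 7545 TPM with it, with *Fbln2* and *S100a4* falling and *Lum* rising. *Fn1* and *Col1a2* passed the adjusted p but not the fold threshold (log2 fold changes −0.91 and −0.88, limma-trend adjusted p = 0.0128 and 0.0285). The groups did not overlap in 12 of the 14, of which 9 were lower and 3 higher. Of all tested genes, 10.0% were separate and lower and 18.1% separate and higher (28.2% in either direction). The 3 higher markers were *Lum*, *Thy1* (179.4 ± 40.5 and 293.0 ± 86.7 TPM) and *Dcn* (138.3 ± 14.8 and 184.6 ± 15.4 TPM). The sum of the list is carried mainly by abundant genes such as *Vim*. Of 12 epithelial markers, 10 were tested and *Cdh1*, *Epcam* and *Krt8* rose, and the sum went from 62.8 to 171.9 TPM up to 291.2 to 321.4 TPM. Of 12 pluripotency markers, 10 were tested and *Nanog*, *Zfp42*, *Dppa5a* and *Tdgf1* rose, with sums of 24.0 to 33.6 TPM and 91.1 to 100.3 TPM. *Dppa5a*, *Lin28a*, *Dppa4* and *Utf1* were at 0 TPM in every well without 4OHT. The 9 macrophage markers had 0 calls by limma-trend, with sums of 162.3 to 198 TPM and 106.8 to 125 TPM. Among them *Lyz2* alone had an unadjusted p under 0.05, and it also passed the adjusted p but not the fold threshold (log2 fold change −0.88, limma-trend adjusted p = 0.0299). Of 7 endothelial markers 2 were tested, with 0 calls by limma-trend and 1 unadjusted p under 0.05, and the sums of 21.8 to 28.9 TPM and 28.6 to 39.3 TPM overlapped. *Pdgfrb*, *Axl* and *Fgf2*, which were lower with 4OHT, are expressed by fibroblasts, and so is *Fgfr1*, which was higher. The part of the makeup of the wells in the differences given above was not tested.

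Across all genes 441 were higher and 210 lower with 4OHT, so 67.7% of calls were higher. Leaving out OSKA + 4OHT replicate 1 cut these counts the most, to 111 and 63, and the fits without any other well gave 123 to 303 higher and 73 to 127 lower. After each well was centred on its median the split was 350 and 312 (52.9% higher), and after quantile normalization 335 and 296 (53.1%). The median of all genes was 0.14 as deposited and 0.0017 after centring, so that log2 fold changes can be read against a shift of this size. None of the 10 genes changed sign with either scaling. Between 15814 and 18230 genes were above 0 TPM in a well, and log2 values correlated across genes at 0.809 to 0.864 between wells of a group and 0.792 to 0.833 between groups.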

How the data were processed

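RNA was quantified by the authors with Salmon, and the deposited table holds TPM per gene and well, which sum to 1000000 in each well and do not state the sequencing depth, which was not estimated here. The build and annotation used are not given in the sources used here, and gene positions are from GENCODE M21. The deposited table also holds the authors' edgeR comparison of the groups (a log2 fold change, a log2 average level, an F score and a p-value per gene), which was not used. All 6 wells were grouped by their labels. Values were taken as log2(TPM + 0.5), genes whose mean over the wells reached 1 TPM were kept (15382), and the groups were compared with limma-trend (limma 3.58.1, R 4.3.3) with Benjamini-Hochberg adjustment over these genes. Calls needed an adjusted p under 0.05 together with a log2 fold change beyond 1 in either direction. A fold change on this scale understates the change of low genes. The members and gene lists were chosen with earlier results of these data known. Named from each list were called genes, up to 4 per direction, and, with fewer than 2 calls, the 2 with the highest mean. Ligands at a mean of 1 TPM or more, and receptors in the order of levels at or above the mean of *Erbb3*, could be named too. *Erbb4*, *Fgfr4*, *Insrr*, *Akt1*, *Dusp5*, *Foxo1* and the markers were named outside this rule, after their values were seen. Of 242 list symbols, 241 were matched. Promoters are from RefSeq (GRCm38.p6), with 6 of 10 members matched (*Irs1*, *Irs2*, *Igf1r*, *Egfr*, *Pdgfra*, *Met*; not *Insr*, *Erbb3*, *Pdgfrb*, *Fgfr1*). Other steps used pandas 2.3.3 under Python 3.11.15. In a simulation of this comparison, used to test the script on known changes (14680 genes, 200 changed), 38% of genes changed by a log2 fold of 1.5 and 77% of those changed by 3 were called, with 11 false calls, and 0 calls where nothing was changed. An exact permutation test of 3 wells against 3 cannot go below p = 0.1 and was not used. Alternatives were pseudocounts of 0.1 and 1, no filter or a minimum of 5 TPM, median centring, quantile normalization, no intensity trend, a replicate block, and each well left out. Protein sequences were not analysed here.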

Additional observations from a re-analysis of the deposited data

How the results depend on the processing

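The log2 fold changes of the 10 genes kept their sign under all 14 alternatives except *Egfr*, whose sign turned without OSKA − 4OHT replicate 3 (0.036) and without OSKA + 4OHT replicate 1 (0.033), and *Erbb3*, which is under the minimum of 5 TPM, was compared in 13. Quantile normalization moved *Irs1* to −1.72 and *Pdgfra* to −0.30. No gene named for a call changed sign. Depth was not estimated from the TPM, and 3 wells per group limit the calls. Leaving out a well gave 111 to 303 genes called higher and 63 to 127 lower, 1 to 3 members called lower, 1 to 2 other receptors, 3 to 5 ligands, 0 to 1 core genes and 0 to 2 inhibitors. In these fits the median log2 fold change lay between −0.73 and −0.41 for the members, −0.29 and 0.085 for the other receptors, −0.52 and −0.17 for the ligands, −0.24 and −0.084 for the adaptors, −0.045 and 0.17 for the core and −0.10 and 0.014 for the inhibitors.

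With the replicate block, 31 genes were called higher and 16 lower, with 0 members, 1 other receptor, 2 ligands, 0 core genes and 0 inhibitors. The deviations of wells with the same number correlated at 0.024, 0.034 and 0.084, so that the numbers were not taken to pair the wells, and OSKA + 4OHT replicate 1 correlated best with OSKA − 4OHT replicate 2 (0.033).

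Without a filter *Irs1*, *Epha3* and *Rictor* lost their calls, leaving 3 members called lower and 1 core gene, and without the intensity trend *Pik3r3* did, leaving 1 core gene. Under quantile normalization 1 adaptor was called, and 4 inhibitors were called both there and after median centring. Quantile normalization moved the median log2 fold change to −0.82 for the members, −0.68 for the ligands, −0.38 for the adaptors, −0.16 for the core and −0.0047 for all genes. Median centring gave −0.28 for adaptors, −0.23 for inhibitors, −0.62 for fibroblast markers and 0.0017 for all genes. A minimum of 5 TPM gave −0.32 for adaptors and 0.044 for the other receptors. The core had −0.078 after median centring, and the FOXO genes 0.032 without a filter. Pluripotency markers had 1.82 with log2(TPM + 1) and 1.84 without a filter. The cause of these shifts was not tested.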
